A study of Homo sapiens with 9 samples.

Results

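Apolipoproteins are the protein components of the particles that carry lipid in blood, and 10 of their genes were followed here in Huh7, a cell line established from a human liver carcinoma. The members were taken by name from the deposited table of raw counts: APOA1, APOA2, APOA4, APOA5, APOB, APOC1, APOC3, APOE, APOH and APOM, 10 of its 58684 genes. All 10 had enough counts to be tested. The cells were labelled shControl, shIMPDH1 or shIMPDH2, for a control and for short hairpin RNAs against IMPDH1 and IMPDH2, the isozymes of inosine monophosphate dehydrogenase in guanine nucleotide synthesis. The hairpins came in a pLKO.1 lentivirus, cells were infected with polybrene and then selected with puromycin, and the same protocol stands with all 9 samples, although what the control vector carried is not stated. Each group had 3 mRNA libraries, which the submitters call biological replicates. Hairpin sequences and their number per target are not stated either, so an effect of the target and one of its hairpin cannot be told apart, and since nothing says how the 3 libraries' cultures were separated, p-values cover only the spread among these libraries, which may be technical.

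A library held 44560837 to 58370328 counts. Both targets were lowered in the libraries labelled for them: IMPDH1 was at 62.7 CPM in shControl and 24.5 CPM in shIMPDH1, and IMPDH2 was at 228 CPM in shControl and 110 CPM in shIMPDH2 (CPM, counts scaled to library size with TMM factors). The other isozyme was higher in each knockdown, IMPDH2 at 274 CPM in shIMPDH1 (edgeR adjusted p = 3.49e-10) and IMPDH1 at 70.3 CPM in shIMPDH2 (edgeR adjusted p = 0.000486). All 11 hepatocyte markers looked for were detected, ALB, AFP and TTR among them, with a summed level of 30256 to 32338 CPM in shControl, 35667 to 36955 CPM in shIMPDH1 and 36195 to 37591 CPM in shIMPDH2. ALB and AFP made up most of this sum. In shIMPDH1, 7 of the markers rose and 1 fell. In shIMPDH2, 8 rose and 3 fell, namely TF, AMBP and HNF4A. Of 8 enterocyte markers, 6 were detected well enough to be tested and FABP2 was at 0 in all libraries. VIL1 made up most of their sum and fell by 0.76 on the log2 scale in shIMPDH1 but was higher by 0.12 in shIMPDH2, so that the sum was 349.9 to 353 CPM in shControl, 215 to 219.95 CPM in shIMPDH1 and 349 to 351 CPM in shIMPDH2, although the other 5 tested markers all fell in shIMPDH2.

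Markers of other cell types were present in part and also moved. Of 5 cholangiocyte markers 4 were tested (KRT7 had at most 1 count), 2 fell in shIMPDH1 and 4 in shIMPDH2, with a sum of 199 to 202 CPM in shControl, 171 to 176 CPM in shIMPDH1 and 156 to 163 CPM in shIMPDH2. Of 4 endothelial markers 2 were tested and KDR was at 0. PECAM1 fell in both knockdowns, and the sum was 12.3 to 13.5 CPM, 5.27 to 6.69 CPM and 6.82 to 8.03 CPM in the same order of groups. Of 5 leukocyte markers 2 were tested and PTPRC had at most 6 counts. LYZ made up most of their sum of 889.7 to 938 CPM, 1312 to 1349 CPM and 865 to 903 CPM and rose in shIMPDH1. CD14, the other one tested, fell there, from 4.32 to 4.81 CPM in shControl to 3.24 to 3.92 CPM in shIMPDH1. Neither was called in shIMPDH2. Of 5 stellate cell and fibroblast markers 3 were tested, 1 higher and 2 lower in shIMPDH1 and 1 of each in shIMPDH2, with a sum of 87.8 to 89.9 CPM, 93.8 to 96.9 CPM and 86.97 to 90.1 CPM. The part of these marker changes in the results on the apolipoproteins was not tested.

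In a lipoprotein, apolipoproteins hold the lipid droplet together, act as ligands for receptors and switch lipases on or off. The liver is the main source of most of them. It secretes APOB on very low density lipoprotein (VLDL), which becomes low density lipoprotein after lipases have removed triglyceride, and it secretes APOA1 and APOA2, the main proteins of high density lipoprotein (HDL). The small C apolipoproteins and APOE move between both kinds of particle.

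Levels of different genes were compared per kilobase of exon in GENCODE 29, which may differ from the annotation the authors counted on. In shControl, APOA2 was highest at 1460 CPM per kb (SD 37.2, n = 3). APOA1 followed at 690.4 (SD 8.59), APOB at 529.97 (SD 8.52) and APOE at 438 (SD 11.7), in the same unit. A middle group held APOC1 at 82.5 (SD 1.76), APOH at 64.0 (SD 2.38), APOC3 at 53.7 (SD 0.953) and APOM at 24.5 (SD 0.385). APOA4, at 1.34 (SD 0.107), and APOA5, at 0.578 (SD 0.141), were more than an order of magnitude lower still. No neighbouring members in this order overlapped between libraries in shControl. The order was the same in shIMPDH1. In shIMPDH2 it differed in 1 place, where APOB stood at 642 CPM per kb (SD 6.41) and APOA1 at 633 (SD 29.3), with overlapping libraries.

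**Figure D1:**
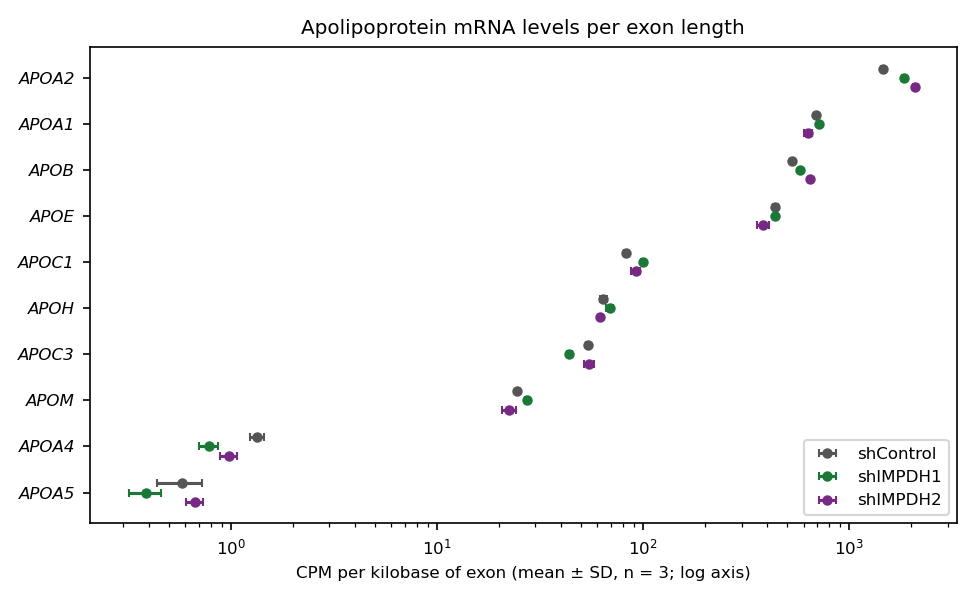
Level of each apolipoprotein mRNA on a log axis, in CPM per kilobase of exon, with points for the mean of the 3 libraries of a group and whiskers for the SD. APOA2 is at the top in each group, and APOA4 and APOA5 lie far below the other 8 genes.

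The 10 genes together took 1.14% (SD 0.018, n = 3) of all counts in shControl, 1.25% (SD 0.0075) in shIMPDH1 and 1.36% (SD 0.0043) in shIMPDH2. The libraries of the 3 groups did not overlap, from 1.12% to 1.16%, from 1.24% to 1.25% and from 1.36% to 1.37%. APOB, with the longest mRNA, gave 68.2% to 69.0% of the members' counts in shControl, 67.8% to 68.4% in shIMPDH1 and 69.8% to 71.5% in shIMPDH2. Without APOB the share was 0.359% (SD 0.0049) in shControl, 0.397% (SD 0.0045) in shIMPDH1 and 0.404% (SD 0.012) in shIMPDH2, and here the knockdowns overlapped each other.

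In shIMPDH1 against shControl, 5 members rose (APOA2, APOB, APOC1, APOH and APOM), 3 fell (APOA4, APOA5 and APOC3) and 2 were not called. Rose, fell and called stand for an adjusted p under 0.05 in edgeR's quasi-likelihood test, with p-values adjusted by Benjamini-Hochberg over the 17396 genes tested. The 8 members called stand beside 43.4% of all genes tested. Highly expressed genes were called more often, and of the 8 members whose mean log2 CPM was at least 5, 6 were called, beside 60.6% of all genes at that level. The members' median log2 fold change was 0.07 and that of all genes 0.00. For 8 members the libraries of both groups did not overlap, beside 51.7% of all genes.

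In shIMPDH2 against shControl, 3 members rose (APOA2, APOB and APOC1), 4 fell (APOA1, APOA4, APOE and APOM) and 3 were not called. These 7 calls stand beside 38.4% of all genes. At a mean log2 CPM of at least 5, 6 of 8 members were called, beside 54.6% of all genes at that level. The members' median log2 fold change was -0.01 and that of all genes 0.01, and 6 members had no overlap between libraries, beside 46.7%. Most changes were small: the median absolute log2 change was 0.21 over the members and 0.16 over all genes in shIMPDH1, and 0.18 and 0.14 in shIMPDH2. Both comparisons use the same control libraries. In bulk RNA, a change in the share of cells that express a gene and a change in RNA per cell cannot be told apart.

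**Figure D2:**
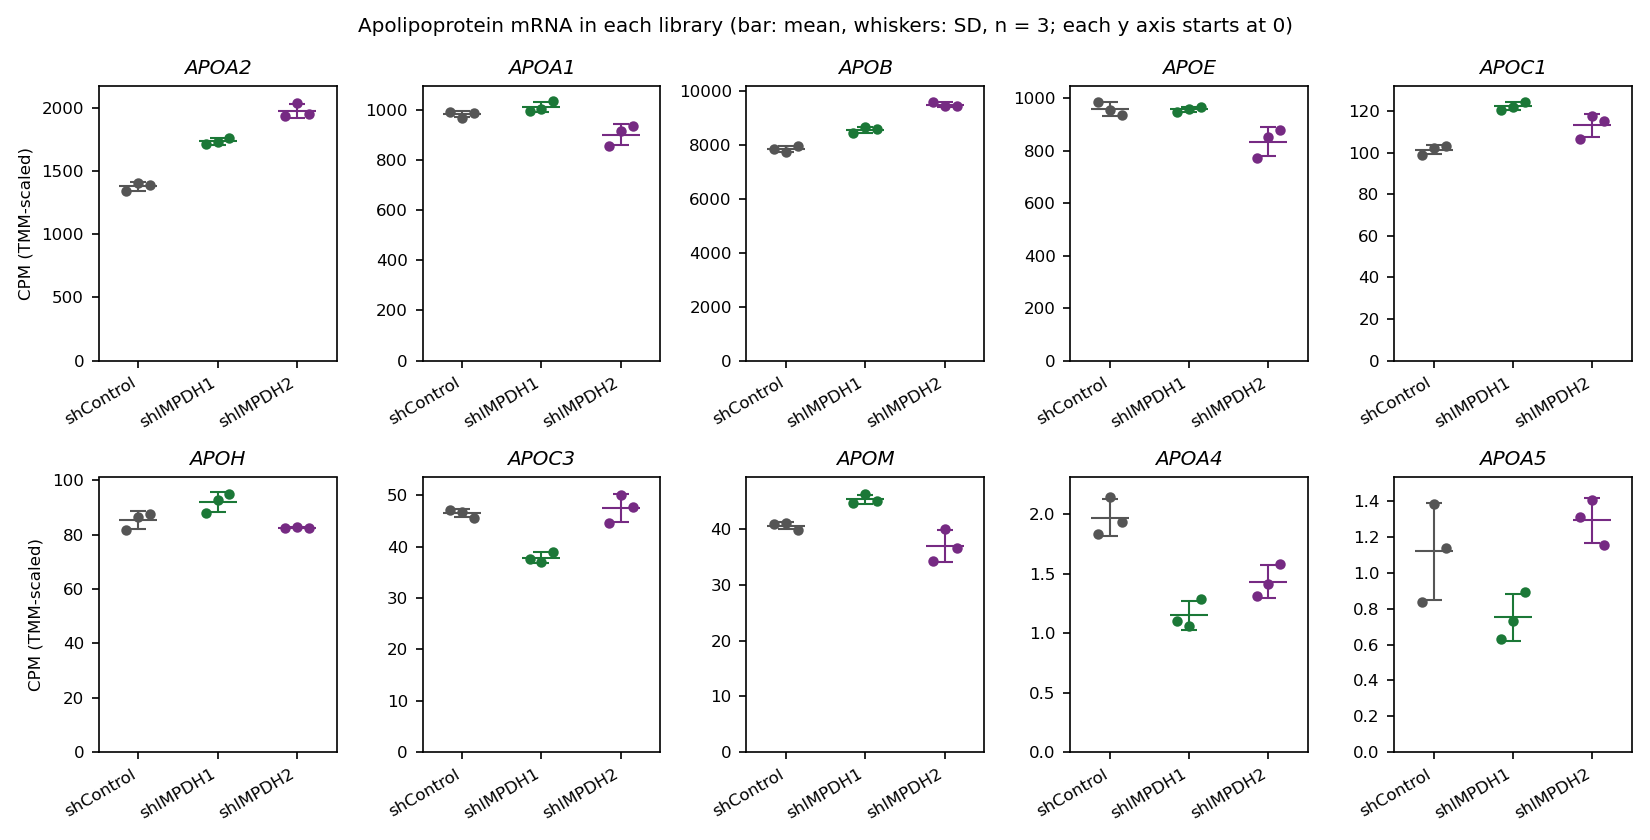
CPM of each apolipoprotein in each library, by group, with a bar for the mean and whiskers for the SD of 3 libraries, each panel on its own axis from 0. APOA2 and APOB step up from shControl to shIMPDH1 to shIMPDH2 with no overlap, while APOC3 is low in shIMPDH1 alone.

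Of the HDL proteins, APOA2 had the largest change among the highly expressed members. APOA2 (chromosome 1, positions 161222292 to 161223631, minus strand; GRCh38, GENCODE 29, as for all positions of genes here) encodes a small HDL protein that sits beside APOA1 on the particle. It was at 1341, 1409 and 1389 CPM in the shControl libraries, 1710, 1733 and 1764 CPM in shIMPDH1, and 1939, 2035 and 1950 CPM in shIMPDH2. Every library of a knockdown lay above every control library, and shIMPDH2 lay above shIMPDH1. The log2 fold change was 0.33 (SE 0.026, adjusted p = 3.42e-11) in shIMPDH1, 1.26-fold, and 0.52 (SE 0.026, adjusted p = 3.98e-15) in shIMPDH2, 1.43-fold.

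The RefSeq promoter window of APOA2 (GRCh38.p14, chr1:161223579-161223878, minus strand, 250 bases before the start and 50 after) is shown because this gene moved most among the highly expressed members:
APOA2: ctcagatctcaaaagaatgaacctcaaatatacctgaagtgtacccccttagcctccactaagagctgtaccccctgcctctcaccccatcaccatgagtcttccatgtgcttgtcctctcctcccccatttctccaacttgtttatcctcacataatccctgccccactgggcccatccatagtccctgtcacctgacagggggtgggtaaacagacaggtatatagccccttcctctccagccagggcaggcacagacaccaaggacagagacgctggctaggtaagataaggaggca
RefSeq windows were at hand for 7 of the 10 members and were searched on both strands for 7 short motifs, which are set in capitals wherever they occur in the printed windows. The motifs were the nuclear receptor core AGGTCA, the HNF4 element CAAAGTCCA, the homeodomain element GTTAAT, the E-box CACGTG, the GC box GGGCGG, the TATA box TATAAA and the CCAAT box CCAAT. Of 35116 RefSeq windows of this length, they occurred in 13.8%, 0.384%, 6.88%, 7.26%, 45.0%, 11.5% and 34.6%. The APOA2 window held none of them, which says only that these letters are not in this window.

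APOA1 (chromosome 11, positions 116835751 to 116837950, minus strand), the main structural protein of HDL and the acceptor of cell cholesterol, did not move with APOA2. It was at 993, 969.5 and 987 CPM in shControl, 997, 1005 and 1035 CPM in shIMPDH1, and 855, 914 and 935 CPM in shIMPDH2. The shIMPDH2 libraries lay below all others, and those of shIMPDH1 lay just above shControl. APOA1 fell by 0.13 on the log2 scale in shIMPDH2 (SE 0.028, adjusted p = 0.000701) and was at 0.04 in shIMPDH1 (SE 0.028, adjusted p = 0.239). The antisense gene APOA1-AS covers 8.64% of the exon bases of APOA1 and was at 0.215 to 0.85 CPM.

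The ratio of APOA2 to APOA1 counts within a library needs no scaling between libraries. It was 1.35, 1.45 and 1.41 in shControl, 1.72, 1.73 and 1.70 in shIMPDH1, and 2.27, 2.23 and 2.09 in shIMPDH2, so the groups did not overlap. The ratio was 1.22-fold higher in shIMPDH1 and 1.56-fold higher in shIMPDH2 than in shControl. With 3 libraries against 3, the smallest p an exact permutation test can give is 0.1, and each of the 15 two-sided tests on 5 such ratios and 3 comparisons reached it (Benjamini-Hochberg adjusted, also 0.1). The ratios were chosen after the values were seen.

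APOM (chromosome 6, positions 31652416 to 31658210, plus strand), the lipocalin that carries sphingosine-1-phosphate on HDL, was at 40.9, 41.1 and 39.95 CPM in shControl, 44.7, 46.4 and 45.1 CPM in shIMPDH1, and 34.4, 40.0 and 36.6 CPM in shIMPDH2. It rose in shIMPDH1, with a log2 change of 0.16 (SE 0.042, adjusted p = 0.00325). It fell by 0.14 in shIMPDH2 (SE 0.043, adjusted p = 0.0113), where 1 library overlapped the control. That call was lost without shIMPDH2 replicate 1 (log2 change -0.09, adjusted p = 0.11). BAG6, on the opposite strand, shares 8.19% of the exon bases of APOM, and whether the counting used strand is not given.

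APOB (chromosome 2, positions 21001429 to 21044073, minus strand) encodes the large protein that forms the backbone of VLDL and low density lipoprotein and stays with its particle until it is taken up. It was at 7847, 7738 and 7990 CPM in shControl, 8440 (8439.6), 8668 and 8589 CPM in shIMPDH1, and 9622, 9449.5 and 9467 CPM in shIMPDH2. As for APOA2, the groups stood apart in the same order. APOB rose with a log2 change of 0.12 (SE 0.023, adjusted p = 8.99e-05) in shIMPDH1 and 0.28 (SE 0.023, adjusted p = 2.95e-10) in shIMPDH2, 1.21-fold. The ratio of APOB to APOA1 counts was 7.99 (SD 0.099, n = 3) in shControl, 8.47 (SD 0.16) in shIMPDH1 and 10.6 (SD 0.60) in shIMPDH2.

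MTTP, the microsomal protein that loads lipid onto APOB as it is made, went the other way in both knockdowns. It was at 362, 388 and 385 CPM in shControl, 282, 289 and 294 CPM in shIMPDH1, and 278, 291 and 288 CPM in shIMPDH2. The knockdown libraries lay below all control libraries. MTTP fell by 0.39 (SE 0.028, adjusted p = 6.30e-12) in shIMPDH1 and by 0.40 (SE 0.028, adjusted p = 3.88e-12) in shIMPDH2, and the knockdowns differed by -0.014 (adjusted p = 0.735). The ratio of APOB to MTTP counts was 20.8 (SD 0.87) in shControl, 29.7 (SD 0.46) in shIMPDH1 and 33.3 (SD 1.14) in shIMPDH2, 1.43-fold and 1.60-fold above control.

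The list of assembly and secretion of APOB lipoproteins had 40 tested genes besides APOB itself. In shIMPDH1, 18 rose and 8 fell, with a median log2 change of 0.07, beside 20.6% and 22.8% of all genes and a median of 0.00. In shIMPDH2, 15 rose and 8 fell, with a median of 0.05, beside 18.6% and 19.9% of all genes and a median of 0.01. MIA3, the receptor that loads bulky cargo into carriers leaving the endoplasmic reticulum, rose with 0.37 in shIMPDH1 and 0.42 in shIMPDH2. SEC24D, a cargo adaptor of the COPII coat, rose with 0.38 and 0.27. PLIN2, whose protein coats lipid droplets, rose with 0.37 in shIMPDH1. In human intestine the enzyme APOBEC1 edits the APOB mRNA to give a shorter protein, and here APOBEC1 had 0 counts in each library, which allows at most 0.0519 to 0.0674 CPM (3 counts, covering counting error only). RBM47, an RNA-binding partner of APOBEC1, fell by 0.28 in shIMPDH2. A1CF, another partner of APOBEC1, which is named here after its values were seen, rose with 0.25 in shIMPDH1 and 0.24 in shIMPDH2.

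**Figure D3:**
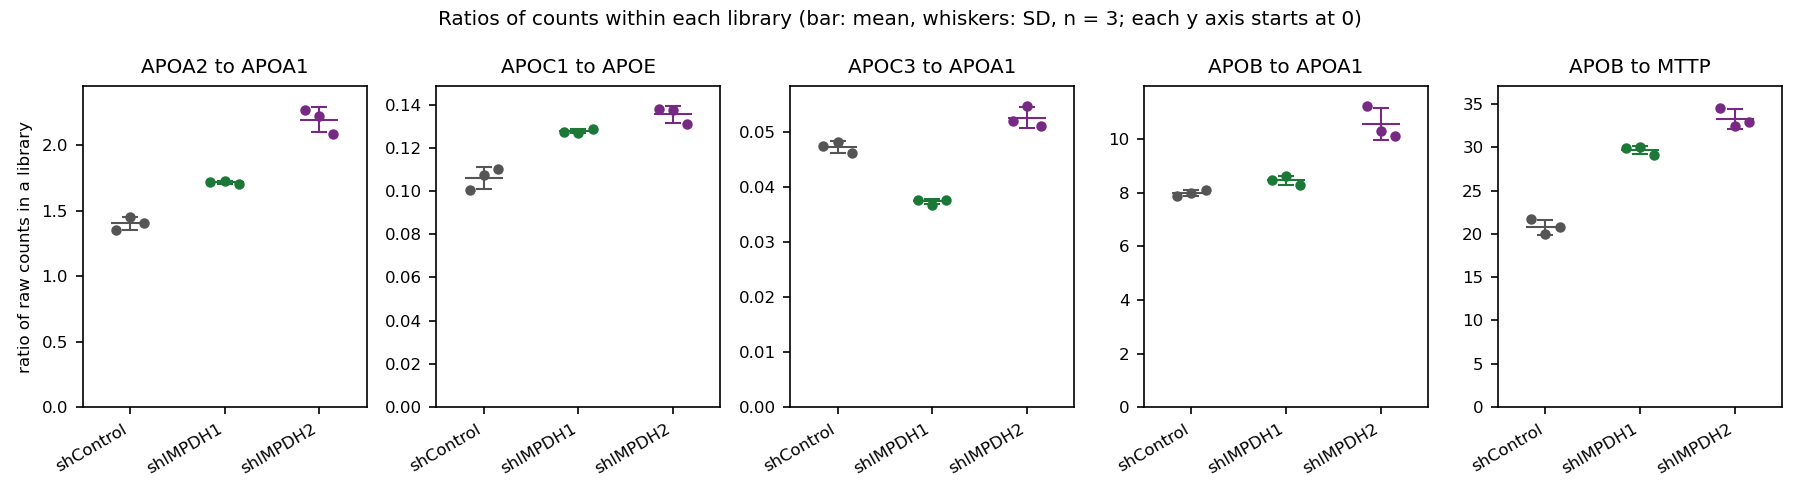
Ratios of raw counts of 2 genes within each library, by group, with a bar for the mean and whiskers for the SD of 3 libraries. The ratio of APOB to MTTP rises from 20.8 in shControl to 29.7 in shIMPDH1 and 33.3 in shIMPDH2, and that of APOC3 to APOA1 is lowest in shIMPDH1.

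APOC3, APOA4 and APOA5 lie with APOA1 in a cluster on chromosome 11, with 2.68 kb between APOA1 and APOC3, 6.40 kb between APOC3 and APOA4 and 28.3 kb between APOA4 and APOA5. APOC3 and APOA5 act in opposite ways on plasma triglyceride: APOC3 restrains lipoprotein lipase and the uptake of remnants, and APOA5 promotes lipolysis. APOC3 (positions 116829706 to 116833072, plus strand) was at 47.2, 46.8 and 45.6 CPM in shControl, 37.6, 37.0 and 39.0 CPM in shIMPDH1, and 44.6, 50.1 and 47.8 CPM in shIMPDH2. It was low in all libraries of shIMPDH1, and shIMPDH2 overlapped the control on both sides. APOC3 fell by 0.30 in shIMPDH1 (SE 0.040, adjusted p = 7.86e-07) and was at 0.03 in shIMPDH2 (SE 0.039, adjusted p = 0.633).

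APOA4 (positions 116820700 to 116823306, minus strand), in humans mostly an intestinal protein, and APOA5 (positions 116789367 to 116792420, minus strand), a liver protein, were scarce. APOA4 had 92, 124 and 90 counts in shControl, 49, 52 and 65 in shIMPDH1, and 71, 68 and 75 in shIMPDH2. That is 1.97 CPM (SD 0.157), 1.15 CPM (SD 0.121) and 1.43 CPM (SD 0.136), and the control libraries lay above both knockdowns. APOA4 fell by 0.78 in shIMPDH1 (SE 0.16, adjusted p = 0.000252) and by 0.47 in shIMPDH2 (SE 0.15, adjusted p = 0.0175). The call in shIMPDH2 was lost with DESeq2 (adjusted p = 0.0518), without shControl replicate 2 (adjusted p = 0.09) and without shIMPDH2 replicate 1 (adjusted p = 0.0723), over a range of adjusted p from 0.012 to 0.09. An antisense gene in GENCODE 29 covers 43.1% of the exon bases of APOA4. Of the enterocyte markers, 5 of 6 tested fell in shIMPDH1 and 5 of 6 in shIMPDH2, where VIL1 rose. Among all genes tested, 22.8% fell in shIMPDH1 and 19.9% in shIMPDH2. In shIMPDH2, SI fell by 2.13, LCT by 2.21 and CDX2 by 1.06. SI was at 1.75 to 2.36 CPM in shControl, 1.39 to 2.22 CPM in shIMPDH1 and 0.37 to 0.548 CPM in shIMPDH2. In the same order, LCT was at 1.99 to 2.47, 1.12 to 1.68 and 0.456 to 0.506 CPM. CDX2 was at 38.0 to 41.2, 30.3 to 32.1 and 17.0 to 21.5 CPM. The part of these markers in the change of APOA4 was not tested.

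APOA5 had 42, 80 and 53 counts in shControl, 28, 36 and 45 in shIMPDH1, and 71, 68 and 55 in shIMPDH2. The control libraries spanned 0.839 to 1.38 CPM and overlapped both knockdowns. APOA5 fell by 0.58 in shIMPDH1 (SE 0.22, adjusted p = 0.0344), a call lost with DESeq2 (adjusted p = 0.0665) and without shControl replicate 2 (log2 change -0.38, adjusted p = 0.235), shControl replicate 3 (adjusted p = 0.0715), shIMPDH1 replicate 1 (adjusted p = 0.125) or shIMPDH1 replicate 2 (adjusted p = 0.0849). It was at 0.20 in shIMPDH2 (SE 0.20, adjusted p = 0.472), and at 0.029 without shControl replicate 1 and 0.39 without shControl replicate 2, uncalled in each case.

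Promoter windows of APOA4 (chr11:116823255-116823554) and APOA5 (chr11:116792371-116792670), both minus strand in GRCh38.p14, are shown because both fell in shIMPDH1:
APOA4: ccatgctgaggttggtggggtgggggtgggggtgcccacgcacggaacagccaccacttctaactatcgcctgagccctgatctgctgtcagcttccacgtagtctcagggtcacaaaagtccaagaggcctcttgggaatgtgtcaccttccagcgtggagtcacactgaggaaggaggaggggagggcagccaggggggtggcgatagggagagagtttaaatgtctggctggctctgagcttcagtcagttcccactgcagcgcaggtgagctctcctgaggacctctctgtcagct
APOA5: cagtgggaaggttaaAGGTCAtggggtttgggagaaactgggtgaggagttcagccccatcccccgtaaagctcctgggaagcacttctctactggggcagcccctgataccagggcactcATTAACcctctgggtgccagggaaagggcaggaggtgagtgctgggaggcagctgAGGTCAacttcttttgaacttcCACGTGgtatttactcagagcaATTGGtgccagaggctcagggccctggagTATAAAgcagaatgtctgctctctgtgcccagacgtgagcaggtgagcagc
Counted from 1 at the 5′ end, the APOA5 window holds AGGTCA at 16 to 21 and 177 to 182, GTTAAT on the other strand at 122 to 127, CACGTG at 199 to 204, CCAAT on the other strand at 221 to 225 and TATAAA at 250 to 255. The TATAAA there spans the listed start. A second RefSeq window of APOA5, chr11:116791830-116792129, is not printed and holds AGGTCA at 95 to 100. The APOA4 window holds none of the 7 motifs. The windows of APOA1, APOB and APOC3 were not used here.

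Among 8 tested genes around the chromosome 11 cluster other than the members, shIMPDH1 had 1 higher and 2 lower, and shIMPDH2 had 1 higher and 0 lower. The shares of all genes were 20.6% higher and 22.8% lower in shIMPDH1, and 18.6% and 19.9% in shIMPDH2. BUD13 and ZPR1, named here after their values were seen, were not called in either comparison, with log2 changes of 0.0067 and 0.043 in shIMPDH1 and -0.044 and 0.0014 in shIMPDH2. SIK3, the kinase gene next to APOA1, rose with 0.25 in shIMPDH1 and was at 0.0030 in shIMPDH2. TAGLN, farther along and encoding the actin-binding protein transgelin, fell by 2.03 in shIMPDH1 and rose with 1.07 in shIMPDH2.

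APOE and APOC1 lie 4.85 kb apart in the other cluster, on chromosome 19, and moved apart. APOE (positions 44905754 to 44909393, plus strand) is the ligand by which remnant particles are taken up by the liver. It was at 986, 954 and 936 CPM in shControl, 949, 959 and 967 CPM in shIMPDH1, and 773, 854 and 878 CPM in shIMPDH2. The shControl and shIMPDH1 libraries were intermixed, and all of shIMPDH2 lay below them. APOE fell by 0.20 in shIMPDH2 (SE 0.032, adjusted p = 1.54e-05) and was at -0.00075 in shIMPDH1 (SE 0.032, adjusted p = 0.989).

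APOC1 (positions 44914247 to 44919349, plus strand), a small protein that inhibits cholesteryl ester transfer and hinders the binding of APOE to receptors, was at 99.1, 102 and 103 CPM in shControl, 121, 122 and 125 CPM in shIMPDH1, and 107, 118 and 115 CPM in shIMPDH2. Both knockdowns lay above the control, and shIMPDH1 was the higher. APOC1 rose with 0.27 in shIMPDH1 (SE 0.032, adjusted p = 9.27e-08) and with 0.16 in shIMPDH2 (SE 0.032, adjusted p = 0.000297). The ratio of APOC1 to APOE counts was 0.106 (SD 0.0050, n = 3) in shControl, 0.128 (SD 0.0010) in shIMPDH1 and 0.136 (SD 0.0039) in shIMPDH2. A transcript of GENCODE 29 on the same strand shares 43.2% of the exon bases of APOC1, and reads there may have been assigned to either gene or to none.

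The RefSeq windows of this pair (GRCh38.p14, plus strand, chr19:44905546-44905845 for the first listed start of APOE and chr19:44914422-44914721 for APOC1) are shown because neighbouring genes changed differently:
APOE: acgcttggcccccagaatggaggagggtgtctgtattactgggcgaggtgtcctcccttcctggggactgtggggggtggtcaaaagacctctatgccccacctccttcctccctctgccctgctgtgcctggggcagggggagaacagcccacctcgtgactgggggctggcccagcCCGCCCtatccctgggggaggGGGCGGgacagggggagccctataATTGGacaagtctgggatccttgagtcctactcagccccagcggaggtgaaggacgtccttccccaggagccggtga
APOC1: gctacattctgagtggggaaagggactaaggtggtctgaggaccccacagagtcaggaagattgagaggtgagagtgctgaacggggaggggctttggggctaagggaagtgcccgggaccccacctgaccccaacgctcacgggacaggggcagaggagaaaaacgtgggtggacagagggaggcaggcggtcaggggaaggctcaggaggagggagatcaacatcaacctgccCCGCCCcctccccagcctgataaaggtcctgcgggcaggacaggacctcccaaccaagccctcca
The APOE window holds GGGCGG at 200 to 205 and, on the other strand, at 179 to 184, and CCAAT on the other strand at 224 to 228. The APOC1 window holds GGGCGG on the other strand at 236 to 241. The GC box, at 45.0% of all windows, is common.

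Of 9 tested genes around APOE and APOC1, shIMPDH1 had 2 higher and 2 lower, and shIMPDH2 had 3 higher and 2 lower. Over all genes, 20.6% were higher and 22.8% lower in shIMPDH1, and 18.6% and 19.9% in shIMPDH2. TOMM40, the mitochondrial import channel gene next to APOE, rose with 0.18 in shIMPDH2 and was at -0.0079 in shIMPDH1. BCAM, a laminin receptor, fell by 0.45 and 0.40 in shIMPDH1 and shIMPDH2. APOC2, the obligate activator of lipoprotein lipase in the same cluster, had 40 to 70 counts per library and rose with 0.58 in shIMPDH1 (SE 0.21, adjusted p = 0.0245), where it is named after its values were seen, and APOC4 had at most 1 count.

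APOH (chromosome 17, positions 66212033 to 66256525, minus strand), also called beta-2-glycoprotein I, binds anionic phospholipid. It was at 81.7, 86.6 and 87.7 CPM in shControl, 88.0, 92.6 and 95.0 CPM in shIMPDH1, and 82.5, 82.6 and 82.2 CPM in shIMPDH2. The shIMPDH1 libraries lay above the control with almost no gap, and shIMPDH2 lay within its range. APOH rose with 0.11 in shIMPDH1 (SE 0.032, adjusted p = 0.00839), a call lost without shControl replicate 1 (adjusted p = 0.0575) or shIMPDH1 replicate 3 (adjusted p = 0.0774), and was at -0.05 in shIMPDH2 (SE 0.033, adjusted p = 0.253).

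**Figure D4:**
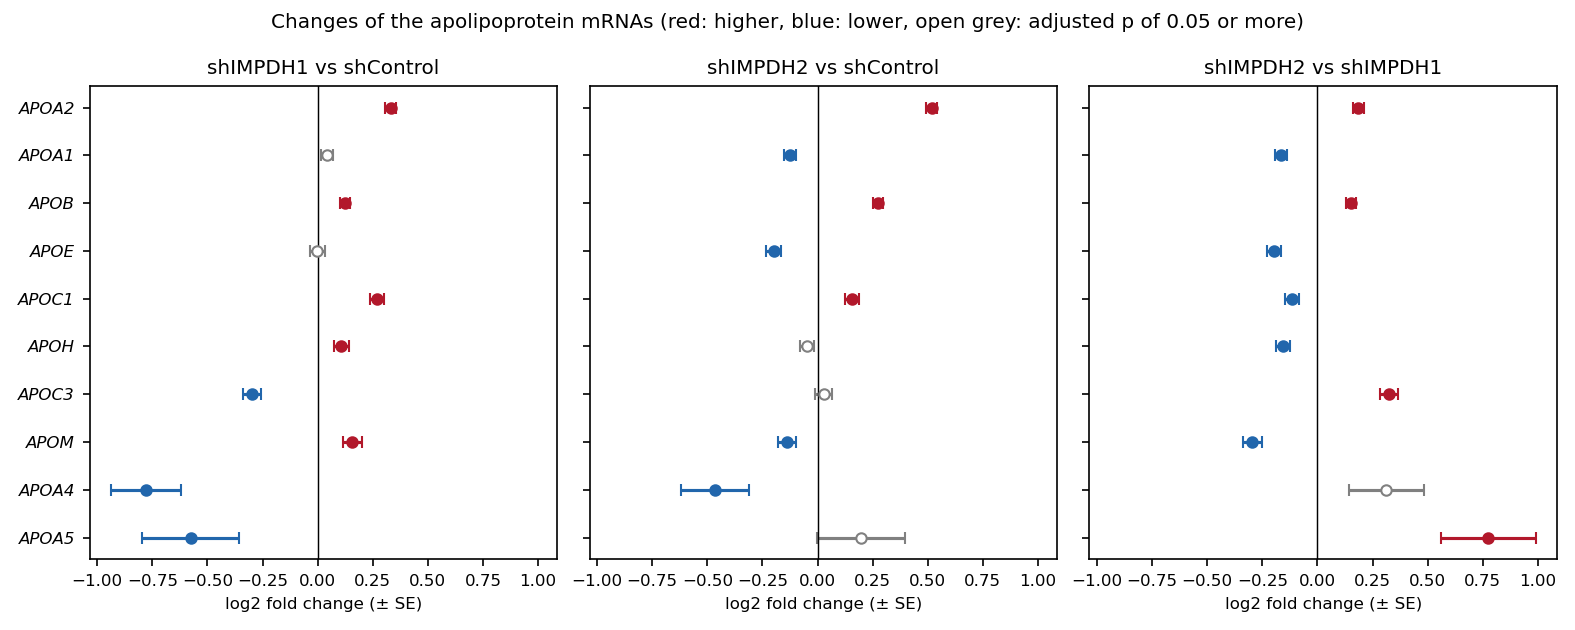
Log2 fold change of each apolipoprotein with its SE in the 3 comparisons, the first-named group over the other, with filled points for called genes. APOA2 and APOB are to the right of 0 in each panel, and the knockdowns differ most for APOA5, APOC3 and APOM among called genes.

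The knockdowns were also compared directly, with no control library in the contrast. In shIMPDH2 against shIMPDH1, 4 members were higher (APOA2, APOA5, APOB and APOC3), 5 were lower (APOA1, APOC1, APOE, APOH and APOM) and APOA4 was not called, 9 calls beside 44.0% of all genes and, at a mean log2 CPM of at least 5, 8 of 8 beside 63.2%. For all 10 members the libraries did not overlap, beside 51.5% of all genes. APOC3 was higher by 0.32 (SE 0.040, adjusted p = 1.69e-07) and APOM lower by 0.30 (SE 0.043, adjusted p = 1.92e-06). APOA5 was higher by 0.78 (SE 0.22, adjusted p = 0.00429), APOE lower by 0.20 (SE 0.032, adjusted p = 1.13e-05), and APOA1 lower by 0.17 (SE 0.028, adjusted p = 1.60e-05). APOA2 was higher by 0.19, APOB by 0.15, and APOC1 and APOH were lower by 0.11 and 0.16. APOA4 stood at 0.31 (SE 0.17, adjusted p = 0.142).

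Within shIMPDH2, replicate 1 was the lowest library for APOA1, APOA2, APOA4, APOC1, APOC3, APOE and APOM and the highest for APOB. Without it, against shControl, APOE fell by 0.15 in place of 0.20 and APOA1 by 0.09 in place of 0.13, and both stayed called. Against shIMPDH1, APOC1 stood at -0.073 in place of -0.11 without that library, with an edgeR adjusted p of 0.0468.

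APOA2, APOA4 and APOA5 were the members with a log2 change of at least 0.5 in a knockdown, and the genes with the most similar pair of changes were sought. Nearest to APOA2 among 6021 genes whose mean log2 CPM was at least 5 were EIF2AK3 (0.33 in shIMPDH1, 0.55 in shIMPDH2) and POLR3D (0.38 and 0.54), at distances of 0.032 and 0.056 in the plane of both log2 changes. Nearest to APOA4 were UCA1 (-0.81 and -0.46) and FBXO2 (-0.76 and -0.50), at 0.036 and 0.039. Nearest to APOA5 were TXLNG (-0.58 and 0.20) and RAB8B (-0.53 and 0.19), at 0.0060 and 0.043. These distances rest on 3 group means and describe likeness only. For APOA4 and APOA5 they are smaller than the SEs of the member's own changes. Those SEs were 0.16 and 0.15 for APOA4 and 0.22 and 0.20 for APOA5. For APOA2 the SE was 0.026 in each knockdown, beside distances of 0.032 and 0.056. The SEs of the neighbouring genes were not counted, so which gene is nearest is uncertain for each of these members.

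Genes that form and reshape HDL changed in both directions, 4 up and 3 down of 12 tested in shIMPDH1 (median -0.06) and 3 up and 2 down in shIMPDH2 (median 0.07). Over all genes, 20.6% were up and 22.8% down in shIMPDH1, and 18.6% and 19.9% in shIMPDH2. ABCA1, the exporter that hands cholesterol and phospholipid to APOA1, was at 126, 126 and 126 CPM in shControl, 159, 167 and 169 CPM in shIMPDH1, and 151, 146 and 143 CPM in shIMPDH2. It rose with 0.39 and 0.22. PLTP, the phospholipid transfer protein, fell by 0.46 in shIMPDH2, from 97.6 to 71.1 CPM (adjusted p = 7.70e-11), and was at 0.04 in shIMPDH1. BMP1, a protease that trims the precursor of APOA1, fell by 0.66 in shIMPDH1, and its enhancer PCOLCE2 rose with 0.52. LIPC, hepatic lipase, fell by 0.18 in shIMPDH1. SCARB1, the receptor that takes cholesterol from HDL, rose with 0.14 in shIMPDH2.

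Of 22 lipoprotein receptors and their regulators, shIMPDH1 had 7 higher and 6 lower (median 0.017), and shIMPDH2 had 7 higher and 10 lower (median -0.14, beside 0.01 for all genes). The shares of all genes were 20.6% higher and 22.8% lower in shIMPDH1, and 18.6% and 19.9% in shIMPDH2. LRP2, or megalin, a receptor with many ligands, was at 113, 107 and 111 CPM in shControl and 107, 106 and 109 CPM in shIMPDH1, but at 48.2, 45.3 and 47.0 CPM in shIMPDH2, a fall of 1.23 (SE 0.032, adjusted p = 4.86e-21). LSR, a receptor for triglyceride-rich particles, fell by 0.41 and 0.32, and the ubiquitin ligase gene MYLIP fell by 0.39 in shIMPDH2. LRP4 rose with 0.63 in shIMPDH1.

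Among 12 tested lipases and regulators, 2 were higher and 5 lower in shIMPDH1 (median -0.06), while shIMPDH2 had 3 of each (median -0.00016). Over all genes, 20.6% were higher and 22.8% lower in shIMPDH1, and 18.6% and 19.9% in shIMPDH2. ANGPTL4, a secreted inhibitor of lipoprotein lipase, fell by 0.46 in shIMPDH1. FURIN, a proprotein convertase, rose with 0.35 in shIMPDH2, and PCSK5 fell by 0.80 in shIMPDH1. LMF1, needed for lipases to mature, fell by 0.26 and 0.54. Lipoprotein lipase itself, LPL, had at most 2 counts per library, and its anchor GPIHBP1 had 0.

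**Figure D5:**
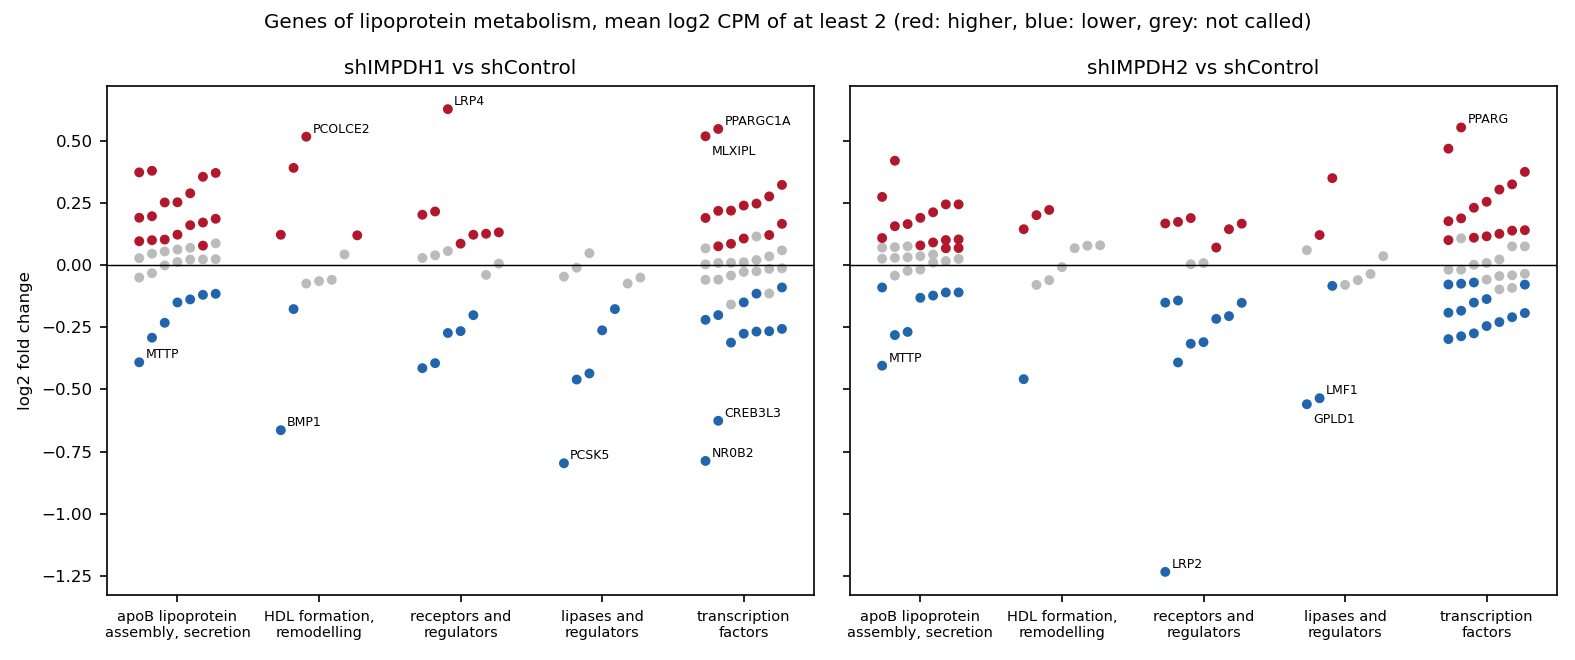
Log2 fold change of genes of 5 lists of lipoprotein metabolism whose mean log2 CPM was at least 2, in each knockdown against shControl, with points spread sideways only for legibility. A few genes are left out; of those shown, LRP2 stands lowest in shIMPDH2, and MTTP is the lowest gene of its list in both.

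Other proteins that travel on lipoproteins included clusterin, CLU, also called apolipoprotein J, at 1245 CPM in shControl, which fell by 0.40 in shIMPDH1 (SE 0.025, adjusted p = 7.82e-13) and by 0.11 in shIMPDH2 (adjusted p = 0.000661). The paraoxonase PON1 rose with 0.76 in shIMPDH1 and 0.27 in shIMPDH2, and serum amyloid SAA1 fell by 0.48 and 0.60. APOL6 rose with 0.21 and 0.40. The list had 19 tested genes, of which shIMPDH1 had 4 higher and 4 lower, and shIMPDH2 had 3 higher and 5 lower. Over all genes, 20.6% were higher and 22.8% lower in shIMPDH1, and 18.6% and 19.9% in shIMPDH2. CETP and APOF had at most 2 counts.

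Of 45 transcription factors and coregulators known to act on apolipoprotein genes, 14 were higher and 13 lower in shIMPDH1 (median 0.0026), and 15 were higher and 16 lower in shIMPDH2 (median -0.019). The shares of all genes were 20.6% higher and 22.8% lower in shIMPDH1, and 18.6% and 19.9% in shIMPDH2. In shIMPDH1 the larger falls were in NR0B2, a corepressor induced by the bile acid receptor, by 0.79, and in CREB3L3, a liver factor of triglyceride metabolism that acts on APOA4, APOA5 and APOC2, by 0.63. CREB3L3 was at 40.7, 40.3 and 42.2 CPM in shControl, 26.8, 26.7 and 26.2 CPM in shIMPDH1, and 35.6, 34.4 and 37.8 CPM in shIMPDH2. The coactivator PPARGC1A rose with 0.55 and the glucose-responsive factor MLXIPL with 0.52. PPARGC1A fell by 0.29 in shIMPDH2. In shIMPDH2, PPARG rose with 0.55 and the bile acid receptor NR1H4, known to repress APOC3 and APOA1, rose with 0.47 (166 to 229 CPM), and it fell by 0.31 in shIMPDH1. HNF4A, a main activator of most members and named here after its values were seen, rose with 0.12 in shIMPDH1 and fell by 0.08 in shIMPDH2. Whether any of these factors bears on the members was not tested.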

How the data were processed

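The 9 Huh7 libraries were made with a stranded mRNA kit, per the labels' protocols. The submitters' processing notes name the build hg38 and the tools STAR, featureCounts, cutadapt and Trim Galore, without versions. The gene annotation, the strand setting and the handling of reads that map more than once were not given in the sources used here. Raw counts per gene symbol were deposited by the authors.

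In R 4.3.3, edgeR 4.0.16 was run on the deposited counts with its default low-count filter (17396 genes kept, holding at least 99.9% of each library's counts), TMM scaling and 1 quasi-likelihood model of group over all 9 libraries. SE is the log2 fold change divided by the square root of F. Steps were tested on simulated counts. Replicates differed by more than sampling noise (mean chi-square per gene from 1.77 to 6.57) and n was kept at 3. Ratios use raw counts. Positions and exon lengths are from GENCODE 29 on GRCh38, and promoter windows from RefSeq.

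The members and lists were chosen with earlier results of these data known. Open to naming were all members and up to 4 called genes of largest change per list and knockdown whose mean log2 CPM reached 2. The 2 genes nearest to each member changed by at least 0.5 were also named. Not every gene that met the rule for lists is described. Outside the rule stand both targets, cell type markers, genes overlapping a member, genes with few counts and those marked as named after their values were seen. For some genes the value in the knockdown where they missed the rule is also given. A few genes of the lists count in the totals but are not reported here. Alternatives were RLE or no scaling, other filters, DESeq2 1.42.0, a fit of only the groups compared, a replicate block and leaving out each library.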

Additional observations from a re-analysis of the deposited data

How the results depend on the processing

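Over 390 repeats of a member's log2 fold change under 13 alternatives in each of 3 comparisons, 375 kept direction and side of the threshold, 11 lost a call and 4 changed sign. The 4 sign changes were of uncalled values: APOE in shIMPDH1 against shControl with a filter at 1 CPM (0.00065), without shControl replicate 1 (0.020) and without shIMPDH1 replicate 1 (0.0061), with a range of -0.018 to 0.020 over the libraries left out, and APOC3 in shIMPDH2 against shControl without shIMPDH2 replicate 2 (-0.013, in a range of -0.013 to 0.072). The calls lost were of APOA5 and APOH in shIMPDH1 and of APOA4 and APOM in shIMPDH2, as given with each gene; the cause was not tested. Members called numbered 7 to 8 in shIMPDH1, 5 to 7 in shIMPDH2 and 9 between the knockdowns under the alternatives run. The labels do not say whether replicate numbers pair the samples. Deviations from group means correlated from -0.0055 to 0.25 between same-numbered libraries of different groups. Between differently numbered libraries they correlated from -0.17 to 0.12. Not every library correlated best with its own number, and pairing is not settled here. A replicate block gave 7735, 6854 and 7852 called genes in place of 7552, 6687 and 7648 and changed no member's call. Without mitochondrially encoded genes in the total, the members' share was 1.20% in shControl, 1.31% in shIMPDH1 and 1.43% in shIMPDH2. With these genes in the total, the share stayed within 1.13% to 1.15%, 1.24% to 1.25% and 1.36% to 1.37% when a library was left out. Leaving out a library kept the sign of each count ratio's difference, from 0.26 to 0.32 for APOA2 to APOA1 in shIMPDH1 and from 0.62 to 0.68 in shIMPDH2. APOA4 and APOA5 had 28 to 124 counts per library and the largest SEs of the members; no test of depth was run.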
